A study of Mus musculus with 6 samples.

Results

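Small nuclear RNAs (snRNAs) were read on 394 probe sets of a mouse whole-transcriptome array, out of 65956 probe sets in all. The members were selected on their level: they were the probe sets named for 1 gene whose RefSeq biotype is snRNA and whose mean log2 value over the 6 arrays was at least 1.92, the median of all probe set means. That mean chose the members and is given as a description only. Of 927 snRNA probe sets, 394 reached this level and 533 did not. The 394 members covered 382 genes. Of these, 14 genes on 26 probe sets have a symbol that gives the RNA species, and the remaining 368 probe sets carry provisional Gm symbols.

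The RNA came from bone marrow cells sorted as Lineage-, c-Kit+ and Sca1+, called LSK, a gate that contains haematopoietic stem cells and early progenitors. The knockout group was 3 samples from miR-21flox/flox:Mx1-Cre+ mice, and the control group was 3 samples from littermates of genotype miR-21flox/flox:Mx1-Cre-. All mice of both groups carried the floxed miR-21 alleles and had received 7 injections of 250 µg of pIpC, a double-stranded RNA analogue that raises interferon, from an age of 4 to 6 weeks. Cells were taken 4 weeks after pIpC. The Mx1 promoter that drives Cre answers to interferon and is not restricted to blood cells, and Cre was present in the knockout group alone, so its effects and those of miR-21 loss cannot be told apart. The labels call the samples biological replicates without saying whether each is 1 mouse or a pool, and the p-values then measure only the spread between these arrays.

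SnRNAs are short, stable nuclear RNAs. U1, U2, U4, U5 and U6 are the RNA core of the major spliceosome: U1 pairs with the 5′ splice site, U2 pairs with the branch point, and U6 takes over the 5′ splice site and forms the catalytic centre together with U2. U11 and U12 take the places of U1 and U2 in the minor spliceosome. RNA polymerase II makes most of these RNAs, which carry a trimethylguanosine cap and a ring of Sm proteins, whereas RNA polymerase III makes U6 and 7SK, and U6 is bound by La and the Lsm2-8 ring. Mammalian genomes hold many U6 and U1 copies, most of them taken to be pseudogenes, and their near-identical sequences are hard to tell apart by hybridisation. 7SK holds the elongation kinase P-TEFb inactive. U3, which RefSeq lists as snRNA, is a box C/D small nucleolar RNA that guides processing of ribosomal RNA.

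The arrays were alike in overall level, with medians from 1.90 to 1.95 on the log2 scale, and arrays of the same group correlated at 0.995 or more over all probe sets, against 0.991 or less between groups. LSK genes were expressed, with Kit at 8.15 in the knockout and 8.61 in control and Cd34 at 8.89 and 9.06, while the Sca1 gene Ly6a had no probe set of its own. Over all 18711 named genes 14.9% were higher and 10.1% lower in the knockout at a limma adjusted p under 0.05. The marker counts that follow are small and are to be read against these shares. Of 8 LSK genes tested 6 were lower and 1 higher, with a median change of -0.46. Markers of granulocytic cells differed between the groups. All 15 neutrophil markers measured were higher in the knockout, and their summed linear signal was 2485 to 2538 in the knockout arrays and 1046 to 1114 in control. Of 6 monocyte and macrophage markers tested 4 were higher, with a summed signal of 604 to 627 against 260 to 281, and of 5 mast cell and basophil markers 4 were higher, with 220 to 253 against 132 to 137. Higher calls were made for 3 of 5 megakaryocyte, 2 of 3 erythroblast, 2 of 5 T and NK cell, 1 of 5 B cell and 0 of 4 stromal and endothelial markers, and none of these lists had a lower call. The B cell marker Ms4a1 and the T cell markers Cd3d and Cd3g lay under the level for testing. The arrays hold a mix of cells, so a lower value cannot be told apart into fewer cells of a type and less RNA per cell. These marker shifts move with every difference between the groups given here, and their part in the snRNA values was not tested.

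Over all 32985 probe sets at or above the median level, 24.9% passed the adjusted threshold of 0.05 in limma, 13.4% lower and 11.5% higher in the knockout. Among the 394 snRNA members 190 were lower, 11 higher and 193 did not pass. The median change, always knockout minus control on the log2 scale, was -0.27 for the members and 0.04 for all probe sets fitted. The members called lower numbered 80 without control replicate 1 and 91 without control replicate 3, where 3494 and 3954 of the 32985 were lower. Those called higher numbered 20 without knockout replicate 1, where 2425 of the 32985 were higher. They numbered 7 without control replicate 1, control replicate 2, knockout replicate 2 or knockout replicate 3, where 2100 to 2790 were. The members differed by species. Probe sets of U6 and of U6 length made up 98.4% of the members called lower, U1 probe sets lay near 0, and those of U2 and U3 lay above 0.

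Provisional genes were placed beside a named species where their RefSeq length was within 5 bases of it. U6-length means close to the 107 bases of Rnu6. The U11 gene Rnu11, at 108 bases, has nearly the same length, and no U11-length group was made. Loci near both lengths were placed with U6, so length does not separate them from U11. The grouping is by length alone and does not show which RNA a probe set detects. Many members are also not separate measurements: the 394 members hold 320 distinct sets of 6 values, and 91 members share all 6 values with another member. The largest such block has 48 probe sets. It contains a probe set of Rnu6, the named U6 gene, and 47 U6-length Gm loci, so these 47 loci repeat 1 measurement. Counts of distinct members are therefore given beside the counts of probe sets.

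Both probe sets of the U6 gene Rnu6 read lower in the knockout arrays. The Rnu6 probe set shared with the 47 loci read 6.12, 5.82 and 6.18 in the knockout arrays and 6.59, 6.36 and 6.50 in the control arrays. The groups did not overlap, and the lowest control array stood above the highest knockout array. The change was -0.44 ± 0.11 (SE, n = 3 per group, limma adjusted p = 0.0218), a 1.36-fold lower level, with a 95% interval from -0.69 to -0.19. Without control replicate 1 it was -0.39 with an adjusted p of 0.0667 in limma, and without control replicate 3 it was -0.44 with 0.0589, so the call rests on both of these arrays. The other Rnu6 probe set was dimmer and read 2.19, 2.24 and 2.62 in the knockout and 2.79, 2.99 and 3.38 in control. It differed by -0.70 ± 0.17 (SE, limma adjusted p = 0.0191). Its call was lost without knockout replicate 1 (-0.62, limma adjusted p = 0.0583) or knockout replicate 2 (-0.65, 0.0599).

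**Figure D1:**
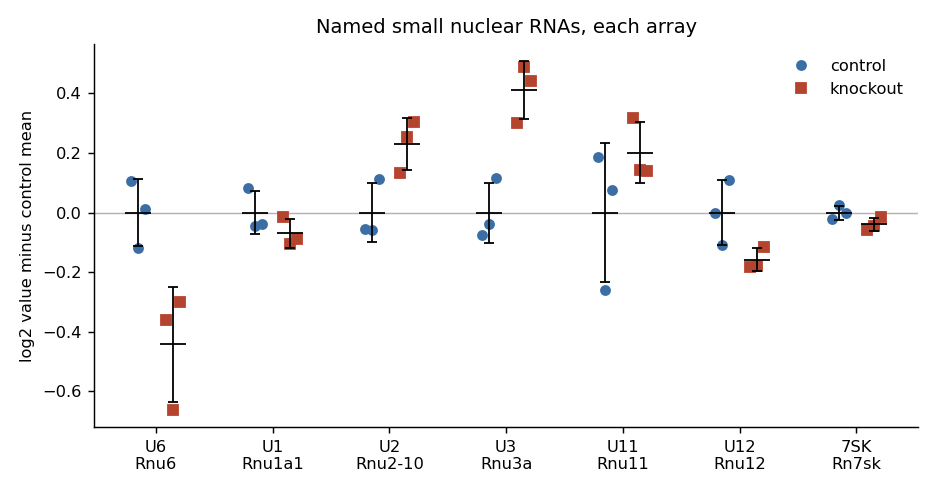
Log2 value of the brightest probe set of each named snRNA minus its control mean (vertical axis, log2), for the 3 control arrays (circles) and 3 knockout arrays (squares), with the mean and SD of each group as bars. The 3 knockout values of Rnu6 (6.12, 5.82 and 6.18) lie under all 3 control values, those of Rnu3a lie above, and those of Rnu1a1 and Rnu11 overlap with control.

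The U6-length loci moved the same way as Rnu6. Together with Rnu6 there were 296 probe sets in this group, of which 187 were lower, 2 higher and 107 did not pass, against 13.4% lower and 11.5% higher over all probe sets fitted. Over the 235 distinct members 127 were lower (54.0%), 214 had a change below 0, and the median change was -0.31. Knockout and control arrays were fully separated for 225 of the 296 probe sets, against 45.0% of all probe sets fitted and 20.5% not overlapping and lower in the knockout. The median value over the 235 distinct members was 3.89, 3.87 and 4.01 in the knockout arrays and 4.21, 4.19 and 4.18 in the control arrays. All 3 knockout medians lay under all 3 control medians. Most changes were modest, and of the 187 probe sets called lower 10 reached a fold of 1.5 and 3 a fold of 2. Without control replicate 1 the number called lower among the 296 was 78 and without control replicate 3 it was 88, while the median change stayed at -0.34 and -0.37. Of all 32985 probe sets 3494 and 3954 were lower in these runs. Over distinct members the counts without these arrays were 71 and 81, without knockout replicate 1 they were 73 and without knockout replicate 2 they were 76.

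**Figure D2:**
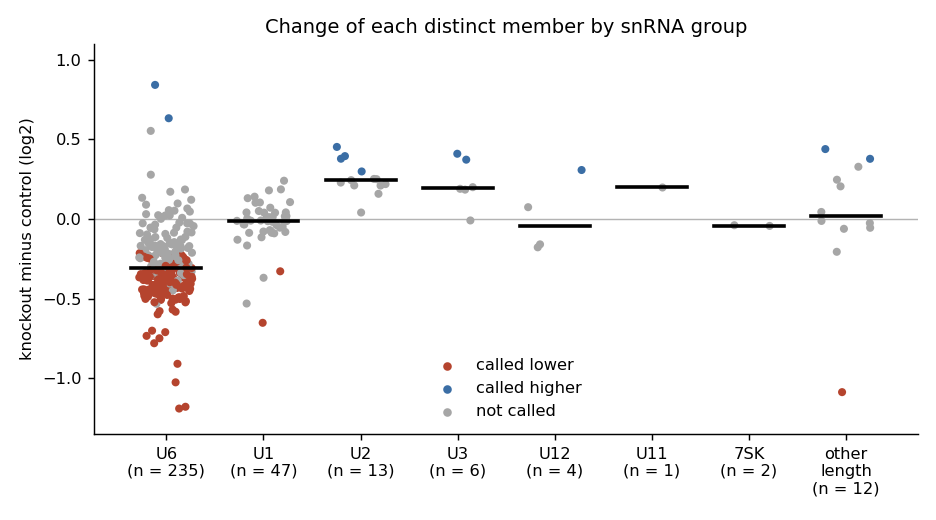
Change of each distinct member (vertical axis, knockout minus control, log2) by snRNA group, with named and length-matched genes pooled and the median of each group as a bar. Of 235 distinct U6 and U6-length members 127 were called lower, whereas 2 of 47 in the U1 group were.

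The knockout arrays were not equally low. Knockout replicate 2 was the lowest knockout array for 152 of the 235 distinct U6 members, knockout replicate 1 for 60 and knockout replicate 3 for 23. The 235 members were read on the same 6 arrays and are not independent of each other. Without knockout replicate 2 the median change of the 296 probe sets was -0.29, and without knockout replicate 3 it was -0.41.

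Within the U6 group the change varied with level and with length. Members with a mean log2 value under 3 had a median change of -0.18 and 13 of 67 were lower, those from 3 to 5 had -0.31 with 61 of 101 lower, and those of 5 or more had -0.41 with 53 of 67 lower. Loci of exactly 107 bases had a median change of -0.34 with 107 of 176 lower. For the 45 shorter loci the median was -0.15 with 14 lower, and for the 14 longer loci it was -0.19 with 6 lower. Differences between these strata were not tested, and the length strata were not matched for level. The 225 members whose values no other member shares had a median of -0.30 with 118 lower. Near-identical U6 copies can still detect the same RNA, so these members do not show that separate loci fell.

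**Figure D3:**
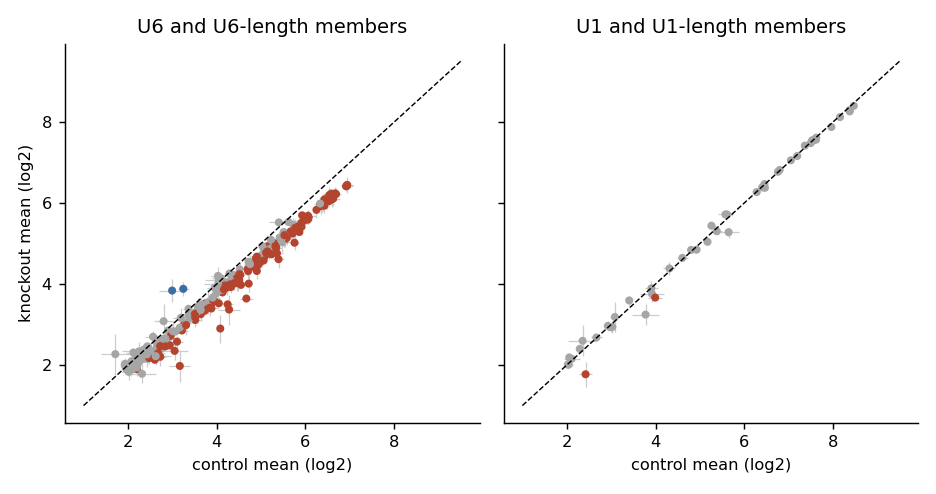
Knockout mean against control mean (both axes log2) for distinct U6 and U6-length members (left) and distinct U1 and U1-length members (right), with SD of 3 arrays as grey bars and a dashed line of equality. Members called lower in the knockout are red, called higher blue and not called grey. The U6 group runs under the line over most of the range and the U1 group lies along it.

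The extremes among provisional U6-length loci lay inside other genes. Gm22067, within the span of the acetyltransferase gene Ep300, read 2.43, 1.79 and 1.71 in the knockout and 3.15, 3.42 and 2.94 in control, a change of -1.19 ± 0.20 (SE, 2.28-fold lower, limma adjusted p = 0.00478). Its values did not overlap, and 2 of the knockout arrays were under the level of 1.92. Gm23138, within Tut4, a uridylyltransferase gene, read 3.04, 2.51 and 3.16 against 4.13, 4.08 and 4.03 and fell by 1.18. Gm25873, within the zinc finger gene Zbtb20, read 3.69, 3.61 and 3.63 against 4.54, 4.63 and 4.83 and fell by 1.03 ± 0.08 (SE, limma adjusted p = 2.02e-04). Gm25323, within Thrap3, fell by 0.91. A locus outside any protein-coding or long non-coding RNA gene of RefSeq, Gm22450, was singled out after its values were seen for its small spread: it read 5.33, 5.23 and 5.29 in the knockout and 5.90, 5.84 and 5.85 in control and fell by 0.58 ± 0.06 (SE, limma adjusted p = 6.08e-04).

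Only 2 probe sets of the U6 group were called higher, Gm22935 and Gm26497. Gm22935, within Fdps, which encodes a farnesyl diphosphate synthase of the sterol pathway, read 3.72, 4.17 and 3.63 in the knockout and 3.14, 2.65 and 3.20 in control and rose by 0.84 ± 0.18 (SE, limma adjusted p = 0.0133). Gm26497, within the mechanosensitive channel gene Piezo1, rose by 0.63. The next highest, Gm26446, was at 0.55 with an adjusted p of 0.150 in limma and read 2.85, 1.90 and 2.06 against 1.72, 1.39 and 2.04. Its groups overlapped and its control mean was under 1.92.

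Host genes were set beside these loci because a probe within a longer gene can also detect its transcript. The gene table used gives no strand, so it is unknown whether a locus lies in the direction of its host. Among 61 distinct U6-group members inside 1 gene that was itself measured above the filter, Pearson's r between the change of the locus and that of its host was 0.516 and Spearman's rho 0.469, over loci that share arrays and in part probes. The host fell in 14 cases, and there the median change of the locus was -0.47 with 9 lower. It rose in 3, where the median was -0.15 with 1 lower, and it was not called in 44, where the median was -0.23 with 16 lower. Host and locus values for the extremes were -0.14 for Ep300 with -1.19 for Gm22067, -0.49 for Tut4 with -1.18 for Gm23138, -0.45 for Thrap3 with -0.91 for Gm25323, and 0.68 for Fdps with 0.84 for Gm22935. The 135 distinct U6 members outside any such gene had a median change of -0.32 with 78 lower, and the 89 inside protein-coding genes had -0.28 with 42 lower. A set of values shared by loci outside and inside genes is counted on both sides, as that of the Rnu6 block is. The 135 and the 89 are therefore not fully separate measurements. The part of host transcripts in these values was not tested.

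**Figure D4:**
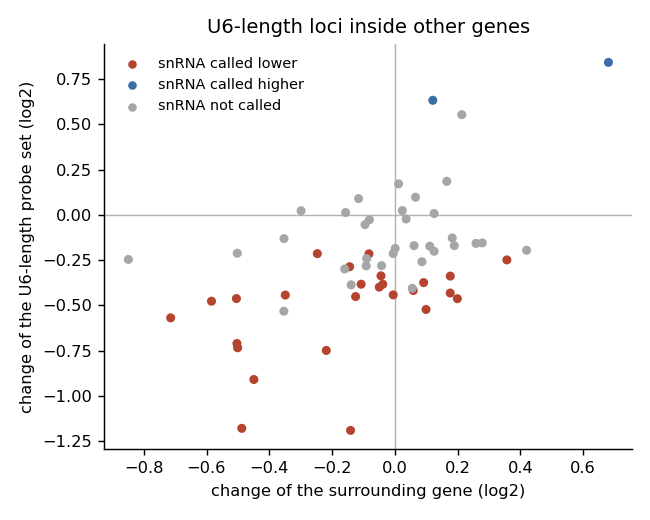
Change of 61 distinct U6-group members (vertical axis, log2) against the change of the gene whose RefSeq span contains them (horizontal axis, log2). Points called lower are red, called higher blue and not called grey. Most points lie under 0 on the vertical axis on both sides of 0 on the horizontal axis, and the point at the upper right is Gm22935 within Fdps.

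U1 snRNA showed no difference past the threshold. The brightest Rnu1a1 probe set read 8.45, 8.36 and 8.38 in the knockout and 8.55, 8.42 and 8.43 in control. These values overlapped, the change was -0.07 ± 0.07 (SE, limma adjusted p = 0.469), and the 95% interval ran from -0.22 to 0.08. Rnu1b6 was at 0.02, with an interval of -0.12 to 0.15. The 8 probe sets of the named U1 genes Rnu1a1, Rnu1b1, Rnu1b2 and Rnu1b6 had changes from -0.08 to 0.07 and none passed. Of 47 U1-length loci 2 were lower and 0 higher, with a median change of -0.01. The lower loci were Gm24524 at -0.65, whose knockout mean of 1.77 was under the filter level, and Gm25134 at -0.33. Without control replicate 1, control replicate 2, knockout replicate 1 or knockout replicate 3 the number of U1 probe sets called lower was 1. Lower calls thus made up 4.26% of the 47, against 13.4% of all probe sets fitted.

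The 14 probe sets of U2 and of U2 length all read higher in the knockout, with changes from 0.04 to 0.45 and a median of 0.25. The lowest change was -0.02 without knockout replicate 3 and -0.01 without control replicate 2. After a second quantile normalization the median was 0.15. Rnu2-10, the named U2 gene, read 8.22, 8.35 and 8.40 in the knockout and 8.04, 8.04 and 8.21 in control on its brighter probe set. All knockout arrays were above all control arrays there, but the change of 0.23 ± 0.08 (SE) missed the threshold with a limma adjusted p of 0.0674 and a 95% interval of 0.05 to 0.41. On its other probe set the change was 0.24 with an adjusted p of 0.0758 in limma. Without control replicate 3 both passed, the brighter at 0.29 (limma adjusted p = 0.0456) and the other at 0.31 (0.0459). Of the 12 U2-length loci 4 rose, against 11.5% over all probe sets fitted. Gm25939 read 8.22, 8.35 and 8.35 against 7.83, 7.87 and 8.03 and rose by 0.40 ± 0.08 (SE, limma adjusted p = 0.00854). Gm25813 rose by 0.45 (limma adjusted p = 0.0369) and lost its call without control replicate 1 or 2 (limma adjusted p = 0.0980 and 0.0755) or knockout replicate 2 or 3 (0.101 and 0.110), and with all arrays under array weights (0.0706) or no filter (0.0559). The number of the 14 called higher was 1 without control replicate 1, control replicate 2, knockout replicate 2 or knockout replicate 3, 5 without knockout replicate 1 and 6 without control replicate 3. With all arrays it was 2 under array weights or no filter. With the brightest probe set per gene 8 of 13 were higher, where 3633 of 18711 probe sets were. All U2-length loci but Gm24890 have the same length of 191 bases, and Gm23444 and Gm23472 share all their values.

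U3, the nucleolar RNA, was higher for the gene Rnu3a. Its brighter probe set read 5.81, 6.00 and 5.95 in the knockout and 5.43, 5.47 and 5.62 in control, with no overlap, and rose by 0.41 ± 0.08 (SE, 1.33-fold, limma adjusted p = 0.00917). Its second probe set rose by 0.37 (limma adjusted p = 0.00764). The Rnu3b genes did not pass. Rnu3b1, Rnu3b2 and Rnu3b3 share a brighter and a dimmer set of values. The brighter set read 6.38, 6.81 and 6.72 against 6.39, 6.41 and 6.51. Its change of 0.20 ± 0.11 (SE) had a limma adjusted p of 0.224. In this set knockout replicate 1 lay just under the lowest control array and the other knockout arrays lay above the highest. The dimmer set read 6.30, 6.63 and 6.56 against 6.30, 6.28 and 6.36, a change of 0.18 (limma adjusted p = 0.185). Without knockout replicate 1 the change of the brighter set was 0.33 and that of the dimmer set 0.28 (limma adjusted p = 0.0347 and 0.0459). In that run 9 of the 10 U3 probe sets passed, where 2425 of 32985 probe sets were higher. The 10 hold 6 distinct sets of values, so not all of the 9 are separate measurements. With all arrays 2 of the 10 were higher, against 11.5% over all probe sets fitted. Rnu3b4 was at 0.19 on one probe set and -0.01 on another.

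The named minor spliceosome RNAs did not pass. Rnu11 read 7.58, 7.40 and 7.40 in the knockout and 7.44, 7.00 and 7.33 in control, a change of 0.20 ± 0.12 (SE, limma adjusted p = 0.250) with an interval of -0.07 to 0.48 and overlapping groups. Rnu12 read 7.09, 7.09 and 7.16 against 7.27, 7.16 and 7.38 and was at -0.16 ± 0.07 (SE, limma adjusted p = 0.151, interval -0.33 to 0.01). Its knockout arrays lay just under its control arrays. Of 3 loci of U12 length 1 was called higher, Gm25097, against 11.5% over all probe sets fitted. Gm25097 has 145 bases where Rnu12 has 150, at the edge of the length window, and was placed there by length alone. It read 2.62, 2.81 and 2.75 against 2.45, 2.29 and 2.53 and rose by 0.31 (limma adjusted p = 0.0335). The U5 gene Rnu5g was dim, with a mean of 0.79 on both of its probe sets, and was not tested.

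7SK was close between the groups. Rn7sk read 11.12, 11.13 and 11.16 in the knockout and 11.15, 11.20 and 11.17 in control, near the top of the range of the arrays, where values reach 11.5. The change was -0.04 ± 0.06 (SE, limma adjusted p = 0.648), with an interval of -0.17 to 0.09. The second Rn7sk probe set gave -0.04 as well.

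Of 12 members of other lengths, 2 rose and 1 fell (16.7% and 8.33%), near the 11.5% higher and 13.4% lower over all probe sets fitted. Gm24407 and Gm24265, both of 141 bases, rose by 0.44 ± 0.08 (SE, limma adjusted p = 0.00551) and 0.38 (limma adjusted p = 0.0101), and Gm25899, also of this length, was at 0.33 with an adjusted p of 0.0745 in limma. Gm24407 read 5.72, 5.68 and 5.88 in the knockout and 5.25, 5.34 and 5.38 in control, without overlap. Gm24041, of 157 bases and within Tmem65, read 3.69, 3.01 and 3.66 against 4.54, 4.49 and 4.59 and fell by 1.09 ± 0.17 (SE, limma adjusted p = 0.00364). Its host was at -0.40.

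U6 was compared directly with the other RNAs as a log2 ratio within each array, which sets aside any scale that all probe sets of an array share. The difference of Rnu6 and Rnu1a1 was -2.33, -2.54 and -2.20 in the knockout and -1.96, -2.06 and -1.93 in control, a shift of -0.37. The shift was -0.67 against Rnu2-10, -0.40 against Rn7sk, -0.28 against Rnu12 and -0.64 against Rnu11. In none of the 5 ratios did the groups overlap. All 5 use the same Rnu6 probe set, whose own values already separate the groups, so they are not independent results. The exact two-sided permutation p was 0.1 for each, also after adjustment over the 5, and 3 arrays against 3 cannot give less. Relative to these RNAs the Rnu6 value was thus lower in every knockout array than in any control array. The shift shows unequal change without showing which RNA changed.

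Members at the edge of the rule had small values. Just inside were Gm26164 at a mean of 1.92 and Gm25431 and Gm24861 at 1.93, with changes of -0.18, -0.12 and -0.06. Just outside were Gm23199 at 1.92, with a difference of -0.44, Gm23308 at 1.91 with -0.01 and Gm23294 at 1.91 with 0.00. In 8 members the knockout mean was under the filter level, 2 of them called lower, and in 1 the control mean was.

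Other small RNA classes of the array are set beside the snRNAs as a description, with no test between classes. Of 369 small nucleolar RNA probe sets above the same level, 10.3% were lower and 3.52% higher with a median change of 0.03. Of 302 microRNA probe sets, 16.2% were lower and 5.63% higher with a median change of 0.04. For the 98 snRNA members outside the U6 group 3.06% were lower and 9.18% higher, with a median of 0.02.

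The genes of proteins that bind, make or process snRNAs were read from lists. Of 141 listed genes 124 were tested, on the brightest probe set of each, and 20 were higher, 9 lower and 95 not called. Their median change was 0.08. Higher calls numbered 12 without control replicate 2, 13 without control replicate 3, 10 without knockout replicate 1 and 9 without knockout replicate 3, and lower calls 5 without control replicate 1 or knockout replicate 2. Over all 18711 named genes 14.9% were higher and 10.1% lower, and the median was 0.07. Among Sm and Lsm ring genes 4 of 11 rose, 0 fell and 7 did not pass. Lsm2 rose by 0.37 ± 0.08 (SE, limma adjusted p = 0.0113), Lsm4 by 0.34, Lsm5 by 0.31 and Lsm7 by 0.47, all of them genes of Lsm proteins. The other Lsm genes tested, Lsm3 at -0.06 and Lsm6 at 0.04, did not pass, and Lsm genes were not tested against Sm genes. Lsm2 kept its call under every alternative run. Lsm4 lost it without control replicate 2 (limma adjusted p = 0.0644), knockout replicate 1 (0.0561) or knockout replicate 3 (0.0669), and Lsm5 lost it without any 1 array other than control replicate 3 (0.0642 to 0.107). Lsm7 lost it without control replicate 2 or 3 or knockout replicate 1 or 3 (0.0940 to 0.120), and with all arrays under centring on their own medians (0.0551), a second quantile normalization (0.0568) or no filter (0.0622). With no filter Lsm5 lost its call too (limma adjusted p = 0.0565). Ssb, which encodes the La protein that binds the end of new U6, was at -0.14 with an adjusted p of 0.409 in limma. None of the 15 tri-snRNP genes tested passed in limma, and 1 had an unadjusted p under 0.05. The nearest was Eftud2, a GTPase of the U5 particle, at 0.23 with an adjusted p of 0.0535, which passed in 5 of the alternatives (0.0304 to 0.0490).

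**Figure D5:**
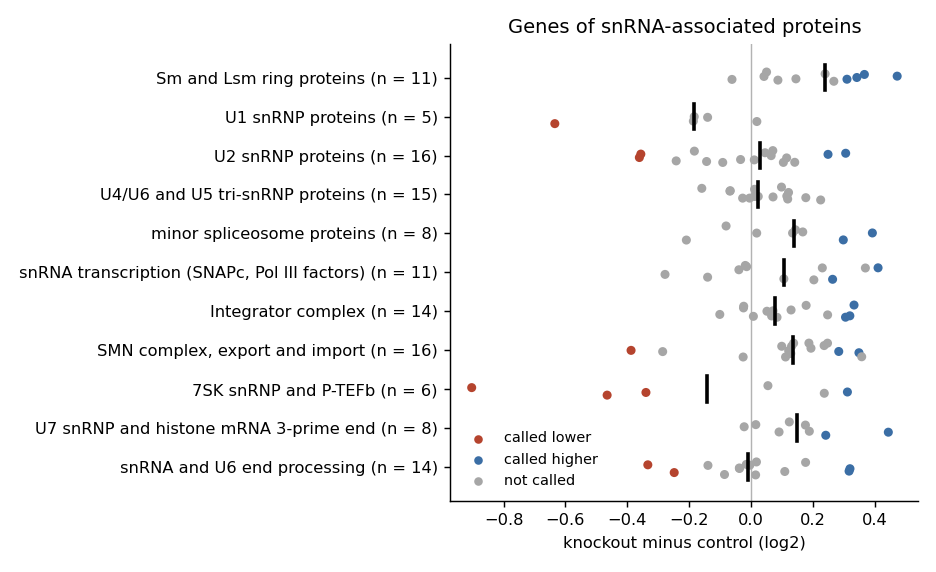
Change (horizontal axis, knockout minus control, log2) of 124 tested genes in 11 lists of snRNA-associated proteins, 1 point per gene and list, with the list median as a bar. Red points were called lower, blue called higher and grey not called. Sm and Lsm ring genes lie mostly to the right of 0, and Ccnt1 and Luc7l2 are the lowest points.

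Of 11 tested genes of snRNA transcription, 2 rose and 0 fell, where 14.9% of all named genes were higher and 10.1% lower, the shares against which the counts of the next lists are to be read as well. Snapc2 and Snapc4, subunits of the complex that reads the snRNA promoter for both polymerases, rose by 0.41 ± 0.07 (SE, limma adjusted p = 0.00382) and 0.26 (limma adjusted p = 0.0348). Snapc4 lost its call without any 1 array other than control replicate 1 (limma adjusted p = 0.0513 to 0.117), and with all arrays when they were centred on their own medians (0.0539) or with no filter (0.0527). The polymerase III factor Brf2, which acts at the U6 promoter, was at 0.37, with a limma adjusted p of 0.0866, and Bdp1 was at -0.28 (limma adjusted p = 0.115). Of 14 genes of Integrator, which cleaves the 3′ ends of polymerase II snRNAs, 3 rose and 0 fell, with Ints5 at 0.33, Ints11, the nuclease subunit, at 0.32 and Ints10 at 0.31. Ints5 lost its call without control replicate 1 or 3 or knockout replicate 2 or 3 (limma adjusted p = 0.0641 to 0.0845). Of 14 genes in the list drawn up for snRNA and U6 end processing, Tut1 and Nhp2 rose and Tent4b and Rbm7 fell. Nhp2 is on this list without being known to process snRNA ends. The call of Tent4b was lost without any 1 array other than knockout replicate 3 (limma adjusted p = 0.0543 to 0.0810), and that of Rbm7 without control replicate 1 or 3 or knockout replicate 1 or 2 (0.0633 to 0.0863). Tut1, which adds uridines to the end of U6, rose by 0.32 ± 0.06 (SE, limma adjusted p = 0.00748), and Usb1, which trims it, was at 0.01 with an adjusted p of 0.907 in limma.

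The largest changes in size among the protein genes tested were those of Ccnt1 and Luc7l2, in the 7SK and U1 lists. The counts by list that follow are small, and over all named genes 14.9% were higher and 10.1% lower. Of 6 genes of the 7SK particle and P-TEFb, 3 fell and 1 rose. Ccnt1, the cyclin T1 gene of P-TEFb, fell by 0.90 ± 0.06 (SE, limma adjusted p = 1.04e-04), the P-TEFb inhibitor Hexim1 fell by 0.47 and Larp7, which binds the 7SK end, fell by 0.34, while Mepce, which caps 7SK, rose by 0.31. Hexim1 missed the threshold without knockout replicate 2 (limma adjusted p = 0.0627) or 3 (0.0508). Of 5 U1 protein genes Luc7l2 fell by 0.63 ± 0.08 (SE, limma adjusted p = 0.00128) and the rest did not pass, with Snrnp70 at -0.18. Of 16 U2 protein genes Sf3a2 and Sf3b5 rose, by 0.25 and 0.31, and Htatsf1 and Sf3b1, a subunit at the branch point, each fell by 0.36. Sf3b1 lost its call without control replicate 1 (limma adjusted p = 0.0521), Sf3a2 without any 1 array other than control replicate 2 (0.0625 to 0.0962) and Sf3b5 without any 1 array other than control replicate 1 (0.0791 to 0.135). With all arrays Sf3a2 also lost it after a second quantile normalization (limma adjusted p = 0.0595) or with no filter (0.0522), and Sf3b5 with arrays centred on their medians (0.0675) or no filter (0.0722). Of 8 minor spliceosome genes 2 rose, Snrnp25 by 0.39 and Zmat5 by 0.30, and 0 fell. Snrnp25 lost its call without control replicate 2 or 3 or knockout replicate 1 or 3 (limma adjusted p = 0.0634 to 0.0818), and Zmat5 without any 1 array other than control replicate 1 (0.0688 to 0.100) or with no filter (0.0519). Of 8 genes of the U7 particle and histone RNA ends 2 rose, Lsm11 by 0.44 and Lsm10 by 0.24, and 0 fell. Lsm11 lost its call without knockout replicate 3 (limma adjusted p = 0.0525) and Lsm10 without any 1 array other than knockout replicate 3 (0.0577 to 0.0896). In the SMN and transport list, whose proteins load the Sm ring, 2 of 16 rose and 1 fell, no more than those shares. Prmt5, a methyltransferase of Sm proteins, rose by 0.28 and Gemin2 by 0.35, and Strap fell by 0.39. Gemin2 lost its call without control replicate 2 or knockout replicate 1 or 3 (limma adjusted p = 0.0629 to 0.0764).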

How the data were processed

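The authors deposited log2 values for each probe set and array, made with RMA per the submitters' processing notes. The method subtracts background, quantile-normalizes the arrays and summarises probes, which removes a shift that most transcripts share. The log base was read as 2 from the range of values, and the software version and genome build are not given in the sources used here. No count stands behind an array value, and 3 arrays per group limit the precision.

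Of 65956 probe sets, 30604 had 1 gene symbol in the platform annotation, 2146 had several and 33206 were not listed. Symbols were matched to a RefSeq table of assembly GRCm38.p6 by Entrez ID (22818), symbol (7476) or synonym (308). Its coordinates served only to find genes that contain an snRNA locus. Probe sets annotated to several genes, among them those listing Rnu7, were not used.

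A two-sided test with lmFit and eBayes of limma 3.58.1, under R 4.3.3, was run on the 32985 probe sets with a mean of at least the median, with Benjamini-Hochberg adjustment over all of them, and was tested on simulated data. ± after a change is the SE. Genes were named by a rule: members with a species symbol, the 5 highest and 5 lowest provisional members, within large species groups the 3 highest, 3 lowest and 2 brightest, members at the threshold, and of each protein list the 3 smallest p with the highest and lowest change. Those not needed for a comparison are given by counts. A few further genes were named once their values had been seen. Members, lists and rules were chosen with earlier results of these data known. Alternatives changed scaling, filter, features, variance model, weights, the block and the arrays included.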

Additional observations from a re-analysis of the deposited data

How the results depend on the processing

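The fall of the U6 group kept its direction under every alternative run, with a median change of -0.29 to -0.41 when 1 array was left out and -0.40 with the stricter filter. U6 and U6-length probe sets called lower numbered 78 to 175 of 296 with 1 array left out. In these runs 3418 to 3954 of all 32985 probe sets were lower. Under the other alternatives the number was 158 to 207. The 158 of 296 came with no filter, where 4210 of 65956 probe sets were lower. The 207 of 295 came with the brightest probe set per gene, where 2272 of 18711 were lower. With the stricter filter 186 of 231 were lower, where 4038 of 22015 were. For all snRNA members, leaving out 1 array gave 80 to 177 lower, 7 to 20 higher and a median change of -0.23 to -0.32. The median was -0.081 with no filter, which takes in all 927 snRNA probe sets, and -0.34 with the stricter filter, which drops the dimmest. For the protein lists, leaving out 1 array gave 9 to 18 genes higher and 5 to 8 lower. The median of the U1 group was -0.01 to -0.03 with 1 array left out. With the replicate number as a block, 196 members were lower and 13 higher, and 29 protein genes were higher and 9 lower. The brighter Rnu2-10 probe set then passed (0.23, limma adjusted p = 0.0452). The labels do not state a pairing by number. The correlation of deviations was 0.175, 0.196 and 0.071 for arrays of the same number. For arrays of different numbers it was lower, from -0.185 to 0.043. No scaling moved the median of all probe sets by more than 0.1. Of 80 results for single probe sets or genes, 46 kept their call in every alternative run and 34 changed it in at least 1. Over all alternatives these gave 994 unchanged, 82 lost and 28 gained calls, and none reversed. With 2 arrays left in a group the test has less power by construction. Dim probe sets limit the size of any fold measured near a log2 value of 1.92.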
